A study of Mus musculus with 9 samples.

Results

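Genes for the proteins of the cytosolic ribosome were followed through RNA-seq libraries of mouse hearts. They were chosen by name alone: a gene was included if its symbol was Rpl, Rps or Rplp with a number and at most one of the letters a, l or x, or was Rpsa, so pseudogenes and the S6 kinases were left out. By this rule 78 of the 13539 genes in the deposited table were members. RefSeq has 81 protein-coding mouse genes whose symbols meet the rule, of which 77 were listed, and Rps27, Rpl39l, Rpl10l and Rpl32l were not analysed here. The hearts came from 12-week-old male mice of the strain C57BL/6JOlaHsd in 3 groups of 3 libraries: OMA1 KO mice given isoproterenol, wild-type mice given isoproterenol, and OMA1 KO mice labelled non-treated. Isoproterenol, a β-adrenergic agonist that drives the heart to beat faster and harder and to remodel, was delivered at 10 mg/kg/day from minipumps for 7 days. OMA1 is a metalloprotease that sits in the inner membrane of mitochondria and is switched on by stress; the labels do not say how the knockout was made. The labels do not say whether the untreated mice carried pumps, so drug and implantation cannot be told apart. Without untreated wild-type hearts, whether genotype changes the response to the drug was not tested.

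A ribosome is built from a small subunit, which holds the mRNA and decodes it, and a large subunit, which joins the amino acids and carries a flexible stalk of P proteins that recruits elongation factors. Its proteins are needed in near-equal numbers, and their mRNAs share a pyrimidine-rich tract at the very start, the terminal oligopyrimidine or TOP motif, through which mTOR signalling and the RNA-binding protein Larp1 govern their translation. Cardiac hypertrophy is known as a state in which ribosome production is raised. Ribosomal protein genes have also left many processed pseudogenes, intronless copies of their mRNA scattered through the genome, whose sequence can be close to that of the gene itself.

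Of the 78 members, 74 reached 10 in 3 or more of the 9 libraries and were tested, while Rps6, Rpl31, Rpl12 and Rpl27 lay below this level. The tested members comprised 41 large-subunit genes, 30 small-subunit genes and the 3 genes of the P stalk. Values are the deposited normalized counts, which do not correct for transcript length. Differences are on the scale of log2(value + 1) with the standard error (SE) of the limma fit, and adjusted p-values are Benjamini-Hochberg values over all 8543 genes tested, with a threshold of 0.05. The libraries held 6.93e+06 to 1.22e+07 reads. Oma1 itself lay between 5.73 and 6.74 in treated OMA1 KO hearts, between 17.7 and 22.0 in treated wild-type hearts and between 6.52 and 9.10 in untreated OMA1 KO hearts. The row named Rpl24 carries the identifier ENSMUSG00000022601, which GENCODE M21 gives to Zbtb11, so its values cannot be assigned to Rpl24 with certainty.

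The family as a whole was most abundant in treated OMA1 KO hearts. The 78 genes together took up 1.06%, 1.03% and 1.04% of the signal in the treated OMA1 KO libraries. They took up 0.862%, 0.915% and 0.905% in the treated wild-type libraries and 0.941%, 0.950% and 0.952% in the untreated OMA1 KO libraries. The treated OMA1 KO libraries thus lay above all 6 others, and the treated wild-type libraries lay below the untreated ones. Transcripts of the mitochondrial genome held 38.2% to 42.5% of the signal in treated OMA1 KO hearts, 36.7% to 37.3% in treated wild-type hearts, with 33.9% to 34.6% in untreated OMA1 KO hearts. With these transcripts left out, the members' share was 1.72% to 1.78% in treated OMA1 KO hearts, 1.37% to 1.46% in treated wild-type hearts and 1.44% in each untreated library. On this base the treated wild-type and untreated groups overlapped. The median tested member had a value of 125 to 136 in treated OMA1 KO libraries, 101 to 107 in treated wild-type libraries and 109 to 113 in untreated OMA1 KO libraries.

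**Figure D1:**
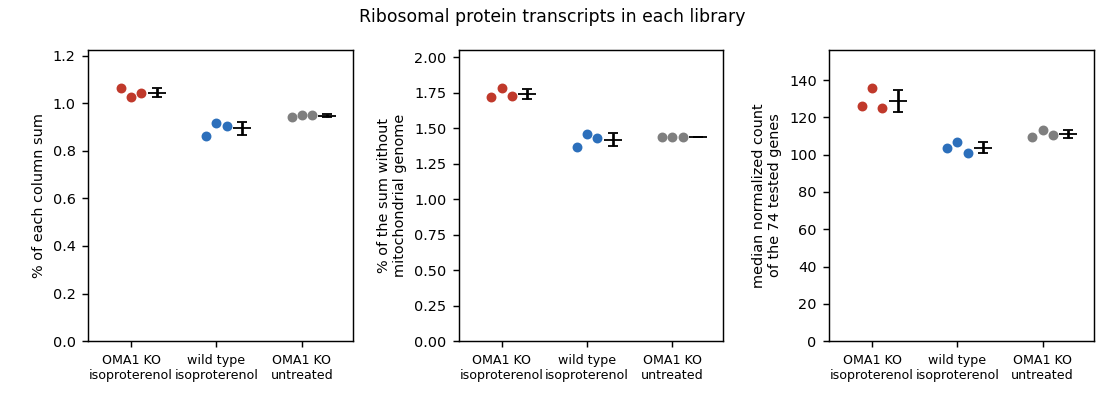
Share of the signal held by the 78 ribosomal protein genes, as percent of each library's sum (left) and of the sum without transcripts of the mitochondrial genome (middle), and the median normalized count of the 74 tested genes (right). Coloured points are single libraries and black marks the mean ± SD of 3; the treated OMA1 KO libraries, at 1.03% to 1.06% on the left, lie above all others in each panel.

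The rows of the genes differed widely in level. Per kilobase of transcript, Rplp1 stood highest with 390 normalized counts per kilobase over all 9 libraries, and Rplp0 had 332. The lowest rows were Rps6 with 4.75, Rpl12 with 4.95 and Rpl5 with 6.44. These rows held only 1.76%, 5.61% and 5.57% of the signal of the gene and its listed near-identical copy together. Those sums averaged 237, 110 and 236 without correction for length, so the low rows cannot be read as scarce mRNAs. Without correction for length, Rplp0 was the most abundant row with a mean of 450.2, followed by Rpl4 with 350.6 and Rps2 with 295. Rpl4, which lines the exit tunnel of the large subunit, had 380, 374 and 369 in treated OMA1 KO hearts, 334, 335 and 333 in treated wild-type hearts and 352, 345 and 335 in untreated OMA1 KO hearts. None of its 3 differences passed the threshold (adjusted p = 0.061, 0.11 and 0.63 in limma).

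The comparison of treated OMA1 KO with treated wild-type hearts asks how the loss of the protease sets the transcriptome under adrenergic load. Here 47 of the 74 tested members were higher in treated OMA1 KO hearts and 0 were lower. Over all genes tested, 12% were called higher and 15.9% lower. The median difference of the members was 0.30, against -0.01 over all genes, and 73 of the 74 members had a positive difference. The higher genes came from every part of the ribosome, with 26 of 41 large-subunit genes, 19 of 30 small-subunit genes and 2 of 3 stalk genes. At an unadjusted p under 0.05, 55 members were higher and 0 lower, and edgeR and DESeq2 on the recovered reads each called 51 higher and 0 lower. With each library adjusted for the length and GC content of transcripts over all genes, called the length and GC correction from here on, 13 were higher and 0 lower and the median was 0.09. Over the 8494 genes so corrected, 685 were higher and 884 lower. Without that correction, 26.1% of 1085 other genes with transcripts of at most 1354 bases were called higher. In 56 members every treated OMA1 KO library lay above every treated wild-type library, and in 0 members below; over all genes 43.6% had groups that did not overlap.

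Rps29, a zinc-binding protein of the small subunit, showed the largest of the called rises. It is listed as ENSMUSG00000034892 on chromosome 12, 69157722 to 69159186 (GRCm38). It had 148, 156 and 150 in treated OMA1 KO hearts, against 104, 89.1 and 75.0 in treated wild-type hearts and 109, 99.7 and 93.5 in untreated OMA1 KO hearts. The treated OMA1 KO libraries stood clear of all others, and the other groups overlapped. The difference from treated wild-type hearts was 0.77 ± 0.10 (adjusted p = 0.000485, limma). With its listed pseudogene Gm14303 added in, the difference was 0.57, and after the length and GC correction it was 0.50.

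Rpl13, a protein of the large subunit, had 138, 138 and 134 in treated OMA1 KO hearts, against 91.8, 81.3 and 87.1 in treated wild-type hearts. Its difference was 0.65 ± 0.08 (adjusted p = 0.000198, limma), and its untreated OMA1 KO libraries, at 94.1, 102 and 88.0, overlapped the wild-type ones. The difference was 0.30 with its listed copy added and 0.36 after the length and GC correction. Rpl38, a small large-subunit protein that mouse embryos need for the translation of certain Hox mRNAs, had 72.1, 83.1 and 76.7 in treated OMA1 KO hearts and 51.0, 59.8 and 48.3 in treated wild-type hearts. The groups did not overlap, and the difference was 0.54 ± 0.10 (adjusted p = 0.00224, limma), a call lost after the length and GC correction (0.17). Rps27a, which is made as a fusion of ubiquitin with a small-subunit protein, had 105, 95.2 and 106 in treated OMA1 KO hearts and 60.1, 72.6 and 81.6 in treated wild-type hearts. Its difference of 0.52 ± 0.10 also passed (adjusted p = 0.00264, limma), and was 0.30 with its listed copy Gm8430 added.

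Rpl21, of the large subunit, was called higher by 0.54 ± 0.10 (adjusted p = 0.00212, limma), with 31.6, 32.4 and 26.9 in treated OMA1 KO hearts against 19.3, 20.5 and 21.8 in treated wild-type hearts. The rows of its listed near-identical copies hold far more signal, BC004004 alone 122 to 132 in treated OMA1 KO hearts and 127 to 145 in treated wild-type hearts. BC004004 is annotated as a protein-coding gene on chromosome 17, 29268788 to 29314065. Its row may hold reads from parts unlike Rpl21, which were not separated. Summed over gene and copies, with BC004004 counted in full, the difference was -0.03, with the sign opposite to that of the gene's own row.

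**Figure D2:**
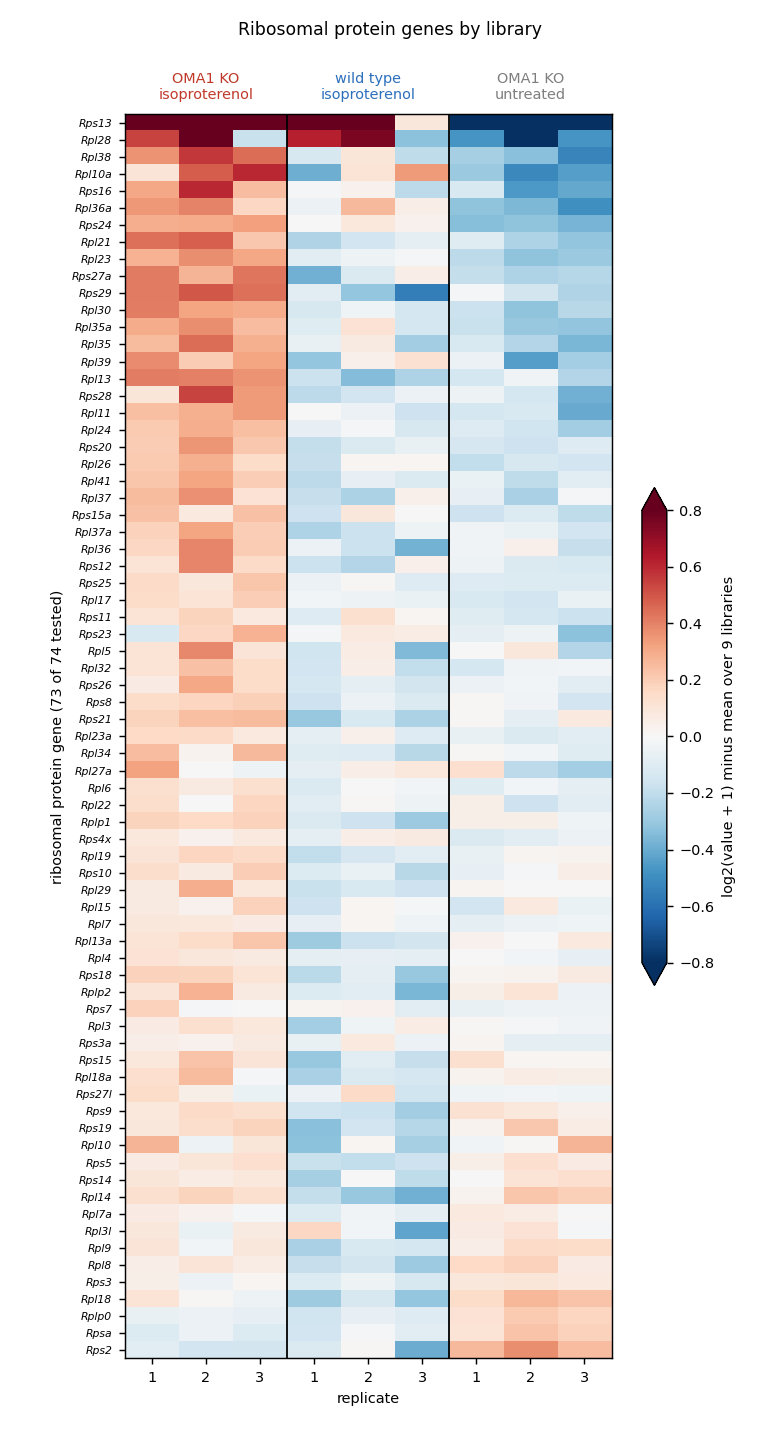
Deviation of log2(value + 1) from each gene's mean over the 9 libraries for 73 of the 74 tested ribosomal protein genes (rows, ordered by the difference between treated and untreated OMA1 KO hearts) in each library (columns, by group and replicate). Colours saturate at 0.8 in either direction; most rows are red in the 3 treated OMA1 KO libraries, and the rows at the foot, with Rplp0, Rpsa and Rps2, are red in the untreated libraries.

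The stalk genes moved unevenly. Rplp0, the stalk base to which the other P proteins bind, had 430, 434 and 428 in treated OMA1 KO hearts, 402, 428 and 418 in treated wild-type hearts and 486, 518 and 506 in untreated OMA1 KO hearts. It was highest in the untreated hearts, and the difference between treated genotypes was 0.05 ± 0.06 (adjusted p = 0.58, limma). Rplp1 had 219, 216 and 220 in treated OMA1 KO hearts, 178, 172 and 158 in treated wild-type hearts and 200, 199 and 188 in untreated OMA1 KO hearts. It was higher in treated OMA1 KO than in treated wild-type hearts by 0.37 ± 0.07 (adjusted p = 0.00259, limma), or 0.01 after the length and GC correction, where it was not called. Rplp2 had 120, 136 and 117 in treated OMA1 KO hearts, 104, 105 and 86.6 in treated wild-type hearts and 115, 121 and 108 in untreated OMA1 KO hearts. Its difference between treated genotypes, 0.34 ± 0.09, passed the threshold (adjusted p = 0.0145, limma), though not without replicate 2 of the treated OMA1 KO group (0.27) or after the length and GC correction (0.01).

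In their own rows, some members had nearly the same level in both treated groups. Rpsa, a small-subunit protein also known as the laminin receptor, had 229, 239 and 229 in treated OMA1 KO hearts and 223, 244 and 232 in treated wild-type hearts, a difference of -0.0011 ± 0.07 (adjusted p = 0.99, limma). Rps2, which lies near the path of the mRNA into the small subunit, had 275, 261 and 263 in treated OMA1 KO hearts and 269, 293 and 221 in treated wild-type hearts, a difference of 0.04 ± 0.09 (adjusted p = 0.78, limma). The groups overlapped in the own rows of both genes. With its listed copy Rpsa-ps10 added, Rpsa had 320, 322 and 326 in treated OMA1 KO hearts and 278, 305 and 290 in treated wild-type hearts. These sums did not overlap and differed by 0.15, which did not pass (adjusted p = 0.092, limma).

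The comparison of treated with untreated OMA1 KO hearts asks what differs with isoproterenol treatment, pump included, in hearts without the protease. Of the 74 tested members, 38 were higher in treated OMA1 KO hearts and 4 were lower. Over all genes tested, 23.9% were called higher and 27.4% lower. The median member differed by 0.22 and the median gene by -0.02. Large-subunit genes were higher in 23 of 41 cases and lower in 1, small-subunit genes higher in 15 of 30 and lower in 2, and of the stalk genes Rplp0 alone was called, as lower. The groups did not overlap in 56 members, 51 of them higher; over all genes 62.6% had groups that did not overlap. Leaving transcripts of the mitochondrial genome out of the scaling shifted the median of all genes to 0.08 and gave 56 members higher and 1 lower, against 2834 and 1669 over all genes. The length and GC correction gave 22 higher and 6 lower, with a member median of 0.09, against 2033 higher and 2351 lower of 8494 genes. edgeR called 41 higher and 3 lower, and DESeq2 43 and 3.

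The largest differences in this comparison, in Rps13 and Rpl28, were in rows of low value that lie below a near-identical copy, as was that of Rpl10a. Rps13 (ENSMUSG00000090862, chromosome 7, 116331505 to 116334195, GRCm38), a small-subunit protein, had 48.1, 20.95 and 42.1 in treated OMA1 KO hearts, against 0, 3.44 and 1.93 in untreated OMA1 KO hearts. Treated wild-type hearts had 25.1, 25.6 and 11.8. All 6 treated libraries lay above the untreated ones, and the 2 treated groups overlapped. The difference between the OMA1 KO groups was 3.93 ± 0.45 (adjusted p = 1.55e-05, limma) and depended on the pseudocount, falling to 1.96 with a pseudocount of 10. Rpl28, a large-subunit protein found in eukaryotes, had 22.3, 29.5 and 13.1 in treated OMA1 KO hearts and 10.5, 5.04 and 10.5 in untreated OMA1 KO hearts, a difference of 1.22 ± 0.32 (adjusted p = 0.00574, limma; 0.74 with a pseudocount of 10 and 0.39 with its copy added). Its treated wild-type libraries had 23.6, 25.9 and 11.7. Rpl10a had 10.4, 13.8 and 15.0 in treated OMA1 KO hearts and 7.61, 6.40 and 6.77 in untreated OMA1 KO hearts, a difference of 0.81 ± 0.18 (adjusted p = 0.00228, limma; 0.44 with a pseudocount of 10). Its treated wild-type libraries, at 7.06, 10.4 and 12.4, overlapped both other groups. Rps13 and Rpl10a reached 10 in no untreated library. They entered the test, and the count of 38 higher members, through treated libraries alone, which favours these calls.

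Among members of higher level, Rpl38 rose most, to 72.1, 83.1 and 76.7 in treated OMA1 KO hearts against 46.3, 44.2 and 38.4 in untreated ones, a difference of 0.84 ± 0.10 (adjusted p = 1.6e-05, limma; 0.54 after the length and GC correction). Rps16, of the small subunit, had 85.7, 105 and 82.0 in treated OMA1 KO hearts and 63.3, 49.8 and 51.7 in untreated OMA1 KO hearts. The groups did not overlap, and the difference was 0.72 ± 0.11 (adjusted p = 0.000151, limma), or 0.23 with its pseudogene added. Rps24, a small-subunit protein whose human gene is mutated in some patients with Diamond-Blackfan anaemia, had 228, 230 and 234 in treated OMA1 KO hearts, 187, 198 and 191 in treated wild-type hearts and 147, 149 and 144 in untreated OMA1 KO hearts. The 3 groups were fully apart. Its difference between the OMA1 KO groups was 0.65 ± 0.06 (adjusted p = 4.45e-06, limma). Rps24, Rpl23, Rpl35a and Rpl38 were the 4 members called in all 3 comparisons in this order, highest in treated OMA1 KO, between in treated wild-type and lowest in untreated OMA1 KO hearts.

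Rps2, Rpsa, Rplp0 and Rpl18 were lower in treated than in untreated OMA1 KO hearts. Rps2 had 275, 261 and 263 in treated OMA1 KO hearts against 348, 376 and 346 in untreated OMA1 KO hearts, a difference of -0.42 ± 0.09 (adjusted p = 0.00186, limma). Rpsa had 229, 239 and 229 against 267, 290 and 282 in untreated hearts, a difference of -0.26 ± 0.07 (adjusted p = 0.00497, limma). Rplp0 differed by -0.22 ± 0.06 (adjusted p = 0.00967, limma). Rpl18, of the large subunit, had 124, 115 and 111 in treated OMA1 KO hearts and 127, 138 and 134 in untreated OMA1 KO hearts, a difference of -0.19 ± 0.08 (adjusted p = 0.0477, limma). In all 4 genes the groups did not overlap. With cyclic loess scaling, or with the mitochondrial genome left out of the scaling, Rps2 remained called and Rpsa, Rplp0 and Rpl18 were not. The Rpl18 call was also lost in edgeR, in DESeq2 and in 6 of the 9 fits that leave out a library. After the length and GC correction all 4 were called, with -0.50 for Rps2, -0.28 for Rpsa, -0.23 for Rplp0 and -0.36 for Rpl18.

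**Figure D3:**
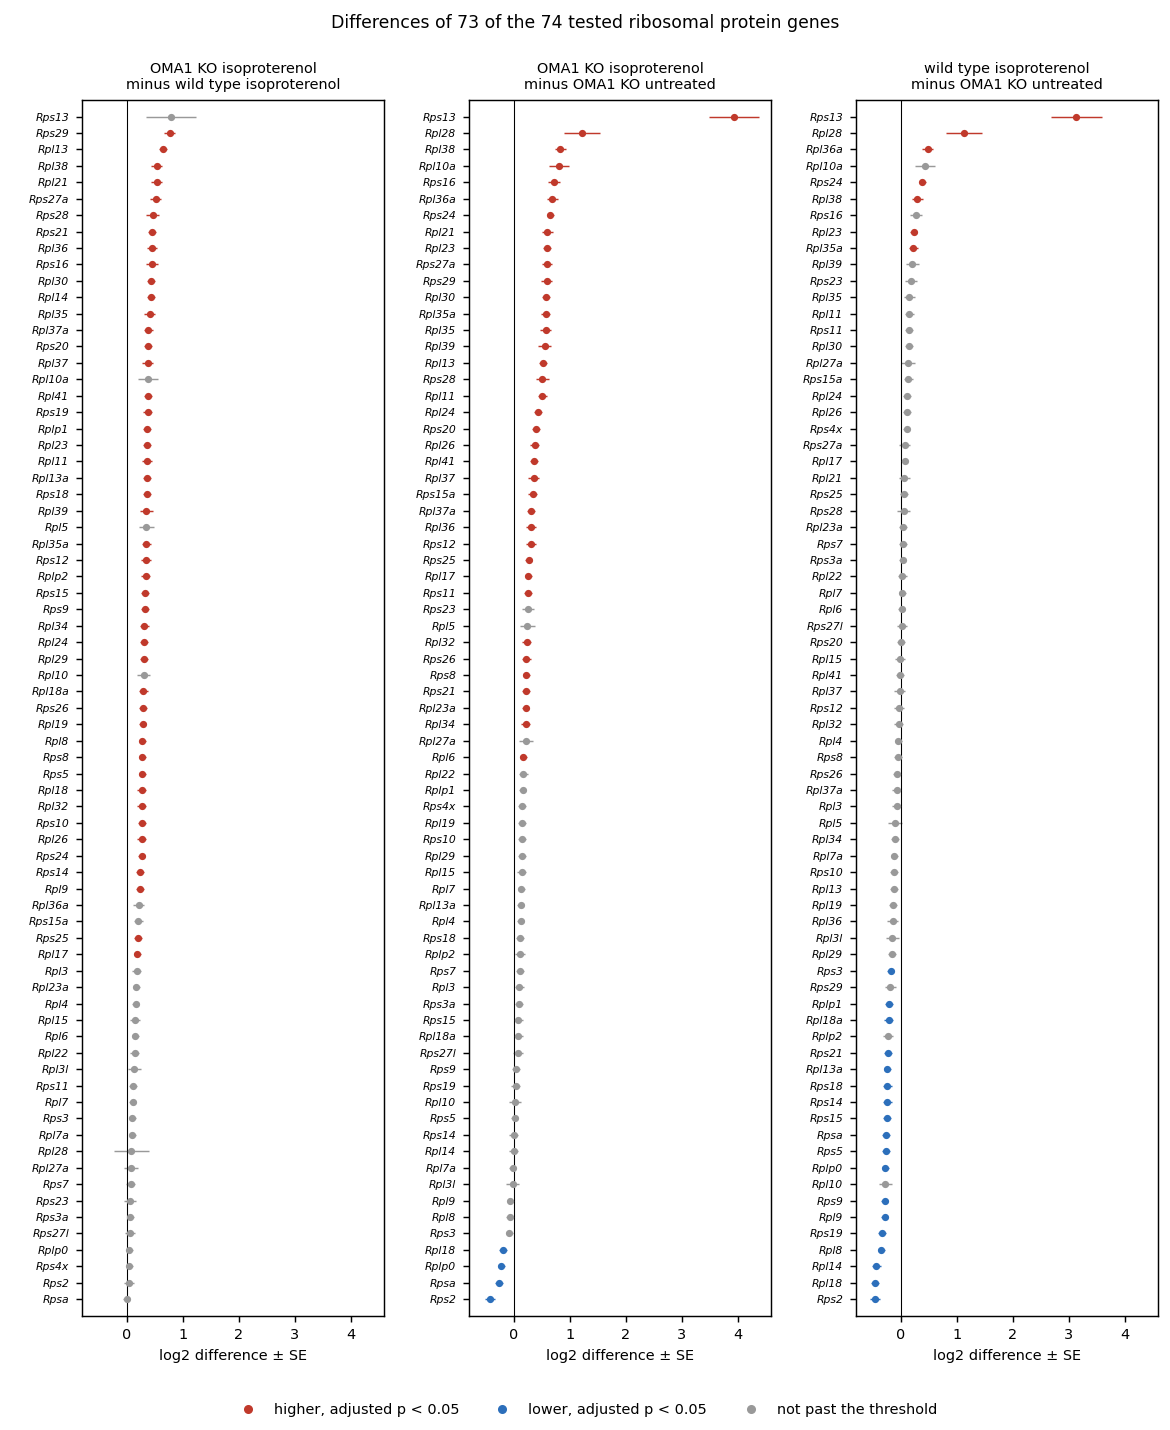
Log2 difference ± SE (horizontal axis, limma) of 73 of the 74 tested ribosomal protein genes (vertical axis, ranked within each panel) in the 3 comparisons. Red points passed the threshold as higher in the group named first, blue as lower and grey did not pass; blue points number 0, 4 and 18 from left to right.

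The third comparison sets treated wild-type against untreated OMA1 KO hearts, which differ in both genotype and treatment. Of the 74 tested members, 7 were higher in treated wild-type hearts and 18 were lower. Over all genes tested, 16.4% were called higher and 16.9% lower. The median member differed by -0.02 and the median gene by 0.01. The lower genes comprised 10 of 30 small-subunit genes, 6 of 41 large-subunit genes and 2 of 3 stalk genes, and the groups did not overlap in 33 members, against 47.4% of all genes. The split depended on the scaling, with 10 higher and 10 lower when the mitochondrial genome was left out and 7 higher and 10 lower with cyclic loess. The length and GC correction turned it to 12 higher and 9 lower, shares near those of all genes, with 1278 higher and 1275 lower of 8494. edgeR and DESeq2 each called 7 higher and 17 lower. Without replicate 2 of the untreated group 3 members were higher and 11 lower, and without its replicate 3, or without replicate 2 of the treated wild-type group, 4 were higher.

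Among the stalk genes, Rplp0 was lower in treated wild-type hearts by a log2 difference of -0.27 ± 0.06 (adjusted p = 0.00523, limma) and Rplp1 by -0.21 ± 0.07 (adjusted p = 0.0293, limma). Both calls were lost with cyclic loess scaling. That of Rplp1 was also lost after the length and GC correction (-0.08), and without replicate 3 of the treated wild-type group or replicate 1 or 2 of the untreated group.

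The largest falls were in Rps2, Rpl18, Rpl14, Rpl8 and Rps19. The limit given above for Rps2, whose near-identical copies were not listed, holds here too. Rps2 had 269, 293 and 221 in treated wild-type hearts and 348, 376 and 346 in untreated OMA1 KO hearts, a difference of -0.46 ± 0.09 (adjusted p = 0.002, limma; -0.30 after the length and GC correction). Rpl18 had 93.8, 104 and 92.2 in treated wild-type hearts and 127, 138 and 134 in untreated OMA1 KO hearts, a difference of -0.46 ± 0.08 (adjusted p = 0.000513, limma; -0.29 after that correction). Rpl14, of the large subunit, had 94.3, 87.1 and 82.2 in treated wild-type hearts and 109, 125 and 123 in untreated OMA1 KO hearts, a difference of -0.44 ± 0.08 (adjusted p = 0.000828, limma). With its listed copy Rpl14-ps1 added it was -0.23. Its treated OMA1 KO libraries, at 117, 122 and 118, stood within the range of the untreated ones. Rpl8, of the large subunit, had 150, 154 and 139 in treated wild-type hearts and 190, 194 and 179 in untreated OMA1 KO hearts, a difference of -0.35 ± 0.07 (adjusted p = 0.00181, limma; -0.17 after the length and GC correction). Rps19, the small-subunit protein whose human gene is the one most often mutated in Diamond-Blackfan anaemia, had 72.5, 82.2 and 78.1 in treated wild-type hearts and 93.5, 106 and 95.6 in untreated OMA1 KO hearts, a difference of -0.34 ± 0.08 (adjusted p = 0.00403, limma), a call lost after that correction (-0.16).

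The 7 genes higher in treated wild-type hearts were Rps13, Rpl28, Rpl36a, Rps24, Rpl38, Rpl23 and Rpl35a. Rpl36a, a large-subunit protein, had 47.7, 59.4 and 51.3 in treated wild-type hearts, against 39.4, 38.2 and 34.8 in untreated OMA1 KO hearts, a difference of 0.48 ± 0.09 (adjusted p = 0.00178, limma). Its treated OMA1 KO libraries, at 63.0, 65.4 and 55.4, overlapped the treated wild-type ones. Rps13 differed by 3.14 ± 0.45 (adjusted p = 0.000197, limma; 1.36 with a pseudocount of 10 and 0.21 with its copy added) and Rpl28 by 1.13 ± 0.32 (adjusted p = 0.0143, limma). Summed with its pseudogene, Rpl28 differed by -0.05. The Rps13 row had entered the test through treated libraries alone. Rps24 differed by 0.38 ± 0.06 (adjusted p = 0.000471, limma) and Rpl38 by 0.30 ± 0.10 (adjusted p = 0.0294, limma). The calls of Rpl28 and Rpl38 were lost without replicate 2 of either group, and that of Rpl38 also without replicate 3 of the untreated group.

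Taken over the 3 comparisons, which share samples, the members fell into a few patterns. In 25 of the 74 the treated OMA1 KO group was called above both others, with no call between treated wild-type and untreated OMA1 KO hearts; among them were Rps29, Rpl13, Rps27a, Rps20 and Rpl30. In 12 the treated wild-type group was called below both others, with no call between treated and untreated OMA1 KO hearts; these included Rpl14, Rpl8, Rps19, Rps9 and Rplp1. A further 15 had no call at all, among them Rpl3, Rpl7, Rps4x and Rps7. Rplp0, Rps2 and Rpsa were called highest in untreated OMA1 KO hearts, with no call between the treated groups. The highest group mean was in treated OMA1 KO hearts for 63 members, in untreated OMA1 KO hearts for 11 and in treated wild-type hearts for 0. Neither the patterns nor the highest group was counted over all genes, so these counts cannot be read as particular to the family.

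Paralogs with restricted expression are a known source of variation among ribosomes. Rpl3l, the form of Rpl3 made in heart and skeletal muscle, had 154, 139 and 152 in treated OMA1 KO hearts, 162, 142 and 107 in treated wild-type hearts and 151, 157 and 143 in untreated OMA1 KO hearts. Rpl3, the general form, had 148, 155 and 150 in treated OMA1 KO hearts, 117, 138 and 147 in treated wild-type hearts and 143, 141 and 138 in untreated OMA1 KO hearts. Neither gene passed the threshold in any comparison, with differences of 0.13 ± 0.12 for Rpl3l and 0.18 ± 0.08 for Rpl3 between treated OMA1 KO and treated wild-type hearts. The Rpl3 difference passed without replicate 3 of the treated wild-type group (0.25) and with cyclic loess scaling (0.26). Per kilobase of transcript, Rpl3l stood at 106 and Rpl3 at 105 over all libraries. Of the 50-base windows of the transcript, 100% occurred in no other gene for Rpl3l, but only 14.4% for Rpl3. Rpl3 has 7 near-identical copies in the annotation, 0 of them listed, so reads assigned to them could not be added back. Rps27l, a paralog of Rps27 that p53 induces, had 34.8, 32.5 and 30.3 in treated OMA1 KO hearts, 30.4, 35.1 and 28.1 in treated wild-type hearts and 30.7, 30.9 and 30.7 in untreated OMA1 KO hearts. Its groups overlapped and its differences were 0.08 or less. Rpl39, which lines the exit tunnel, had 73.5, 65.1 and 70.5 in treated OMA1 KO hearts, 45.2, 58.1 and 61.5 in treated wild-type hearts and 54.6, 41.3 and 46.4 in untreated OMA1 KO hearts. Its difference of 0.35 ± 0.12 between treated genotypes passed narrowly (adjusted p = 0.0413, limma) and was lost in 6 of the 9 fits that leave out a library, in the fit without a filter and with its copies added (0.19).

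Rpl5 and Rpl11 are the proteins that, outside the ribosome, bind Mdm2 and so stabilise p53. Rpl11 had 99.4, 102 and 107 in treated OMA1 KO hearts, 84.1, 81.2 and 74.8 in treated wild-type hearts and 76.1, 77.0 and 63.1 in untreated OMA1 KO hearts. The treated OMA1 KO libraries lay above all others, by 0.36 ± 0.09 over treated wild-type hearts (adjusted p = 0.00863, limma) and by 0.51 ± 0.09 over untreated OMA1 KO hearts (adjusted p = 0.000262, limma). With its listed copies added, the second difference was 0.20. Rpl5 had 14.1, 17.3 and 14.0 in treated OMA1 KO hearts, 11.6, 13.6 and 10.0 in treated wild-type hearts and 13.0, 13.9 and 10.9 in untreated OMA1 KO hearts, and passed in no comparison. Its copy Gm15500 held 236 to 243 in treated OMA1 KO hearts, 198 to 222 in treated wild-type hearts and, in untreated hearts of OMA1 KO mice, 210 to 223.

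The near-identical copies bear on how far single rows can be read. In the GENCODE M21 annotation, 72 of the 78 members had a copy at least 95% identical over at least 80% of their coding sequence, 570 copies in all, with 57 of them for Rpl21. Of these, 43 copies of 39 members were themselves listed in the table, and 14 members lay below a listed copy. BC004004, Wdr89 and the row named Flt3l, counted as copies of Rpl21, Rplp2 and Rpl13a, are protein-coding genes whose loci reach beyond the copied sequence. Their values may include reads from elsewhere in their transcripts. Rps6, the small-subunit protein phosphorylated by the S6 kinases, was such a case. It had 10.3, 3.65 and 3.001 in treated OMA1 KO hearts, 0.183, 9.80 and 9.71 in treated wild-type hearts and 0.242, 0 and 0.691 in untreated OMA1 KO hearts. Its processed pseudogene Rps6-ps4 had 249, 238 and 249 in treated OMA1 KO hearts, 220, 235 and 233 in treated wild-type hearts and 227, 217 and 225 in untreated OMA1 KO hearts. The pseudogene thus held nearly all of the signal in every library. Rpl31, which lies by the mouth of the exit tunnel, had 5.70, 5.84 and 6.98 in treated OMA1 KO hearts, 5.69, 4.38 and 5.48 in treated wild-type hearts and 4.47, 4.796 and 4.42 in untreated OMA1 KO hearts. Rpl12, at the base of the stalk, had 6.74, 8.55 and 6.17 in treated OMA1 KO hearts, 5.96, 4.84 and 6.06 in treated wild-type hearts and 7.25, 4.92 and 4.84 in untreated OMA1 KO hearts. In treated OMA1 KO hearts Rpl27 had 9.43 to 14.2, while the copies Rpl31-ps8, Gm10275 and Rpl27-ps3 had 154 to 172, 104 to 115 and 85.2 to 95.2.

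The coding sequences of gene and copy were compared base by base in 2 pairs only, Rps6 with Rps6-ps4 and Rps13 with Rps13-ps2. They were the same in both, and the other pairs were not compared in this way. Over the whole coding sequence, 747 bases in Rps6 and 453 in Rps13, the gene and its pseudogene matched at every base, with 0 mismatches and 0 gaps. Rps6 lies on chromosome 4 (86854660 to 86857412, minus strand) and Rps6-ps4 on chromosome 2 (75191073 to 75191822, minus strand), while Rps13-ps2 lies on chromosome 7 (88530446 to 88530898, minus strand), as Rps13 itself does (GRCm38, GENCODE M21). The first 60 coding bases are shown for each pair, all in lower case because no base differs.
Rps6: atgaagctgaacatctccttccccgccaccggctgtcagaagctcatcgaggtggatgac
Rps6-ps4: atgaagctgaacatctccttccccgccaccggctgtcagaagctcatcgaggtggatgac
Rps13: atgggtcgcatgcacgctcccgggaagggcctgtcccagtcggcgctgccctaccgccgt
Rps13-ps2: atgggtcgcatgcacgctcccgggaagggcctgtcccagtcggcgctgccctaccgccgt
A read that lies within either coding sequence fits the gene and the pseudogene equally well, and only reads that reach into the untranslated ends could be told apart. Over all members, a median of 46.5% of the 50-base windows of the transcript occurred nowhere else in the annotated transcripts, and the lowest share was 7.57%.

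Adding the listed copies to each gene left the counts of members much as they were. Of the 78 sums, 54 were higher and 0 lower in treated OMA1 KO than in treated wild-type hearts, 38 were higher and 4 lower in treated than in untreated OMA1 KO hearts, and 6 were higher and 20 lower in treated wild-type than in untreated OMA1 KO hearts. Single genes changed more. For Rps13, the sum with Rps13-ps2 was higher in treated OMA1 KO hearts by 0.28 over treated wild-type hearts and by 0.49 over untreated OMA1 KO hearts, against 3.93 for the gene's own row in the second case. For Rpl28, the sum was higher by 0.45 over treated wild-type hearts, where its own row differed by 0.08 ± 0.32. Rpl10a, Rpl13 and Rpl21 lost their calls between the OMA1 KO groups, with sums differing by -0.01, -0.05 and 0.01. The Rpl13 copy Gm12918 went the other way from the gene itself, with 46.6, 55.7 and 47.2 in treated OMA1 KO hearts against 99.2, 96.4 and 97.7 in untreated OMA1 KO hearts. Among the 39 tested members with no listed copy, 23 were higher in treated OMA1 KO than in treated wild-type hearts and 0 lower, and 17 were higher and 3 lower in treated than in untreated OMA1 KO hearts.

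**Figure D4:**
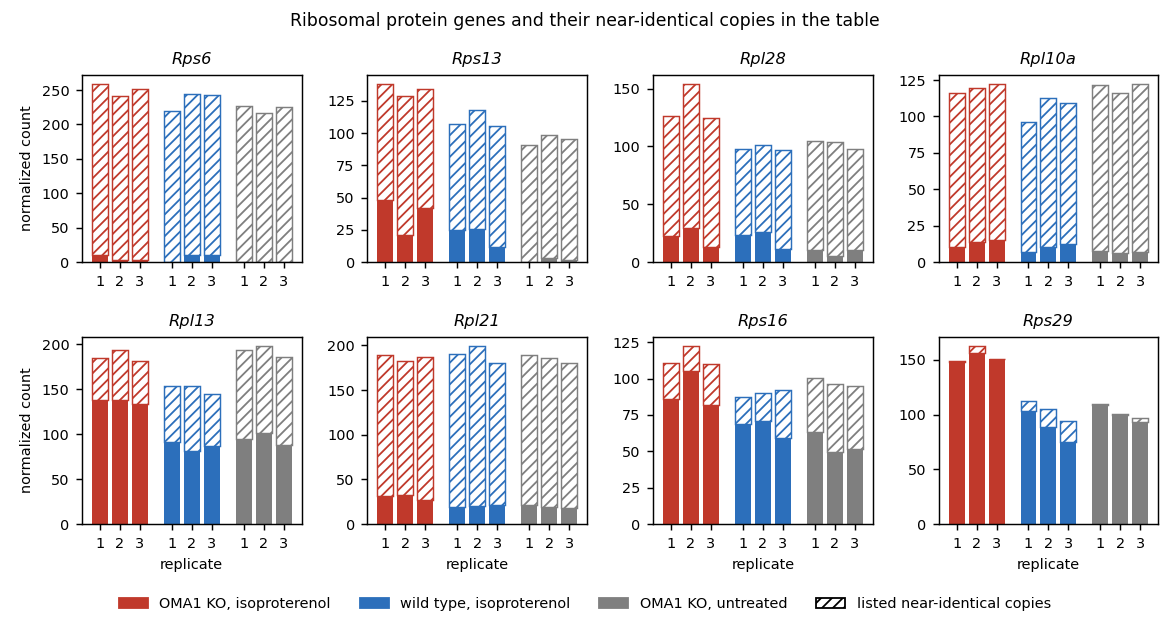
Normalized counts (vertical axes) of 8 ribosomal protein genes (filled bars) with their listed near-identical copies stacked on top (hatched bars) in each library, by group and replicate. In Rps6, Rps13, Rpl28, Rpl10a and Rpl21 the copies hold most of the signal, and in Rpl13 the filled and hatched parts vary in opposite directions between the OMA1 KO groups. The hatched part of Rpl21 includes the protein-coding gene BC004004 in full.

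Ribosomal protein mRNAs are short, and short transcripts in general were higher in treated OMA1 KO hearts. The members' transcripts had a median length of 751 bases, against 3002 over all genes tested. Among 1085 other genes of at most 1354 bases, a length that 9 in 10 members do not exceed, 283 were higher in treated OMA1 KO than in treated wild-type hearts and 29 were lower, with a median difference of 0.17. In the same comparison 28 of 35 members of up to 700 bases were higher, against 18 of 38 longer ones. Across 73 members, the difference between treated genotypes ran against length with a Spearman rho of -0.37, and across 8494 genes with -0.32; the genes share the same libraries and are not replicates. Across 73 members, the difference also ran against level in all 3 comparisons, with rho of -0.42, -0.54 and -0.42. After each library was corrected for transcript length and GC content over all genes, 13 members were higher and 0 lower between treated genotypes, with a median of 0.09. The 13 were Rps20, Rps29, Rpl24, Rpl5, Rps27a, Rps16, Rpl13, Rpl21, Rpl14, Rpl23, Rps24, Rpl30 and Rpl13a, with differences of 0.21 to 0.50. Rps20, at 0.50, was corrected as a transcript of 3706 bases, the longest among members, and had differed by 0.38 before. The Rpl5 and Rpl21 rows held 5.57% and 12.6% of the signal of gene and listed copies, with BC004004 counted in full for Rpl21. Without the correction, their sums with the copies differed by 0.19 and -0.03, and neither was called. The Rpl24 row was corrected with the length of Zbtb11, to which its identifier belongs, so its corrected value cannot be read as that of Rpl24. Between treated and untreated OMA1 KO hearts 22 members were then higher and 6 lower, with a median of 0.09, and between treated wild-type and untreated OMA1 KO hearts 12 were higher and 9 lower. Over the 8494 genes the corrected counts were 685 higher and 884 lower between treated genotypes. They were 2033 and 2351 between the OMA1 KO groups, and 1278 and 1275 in the third comparison. Rplp1, Rplp2, Rpl11 and Rpl38 no longer passed between treated genotypes, with corrected differences of 0.01, 0.01, 0.19 and 0.17. The correction was fitted over all genes, members included.

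**Figure D5:**
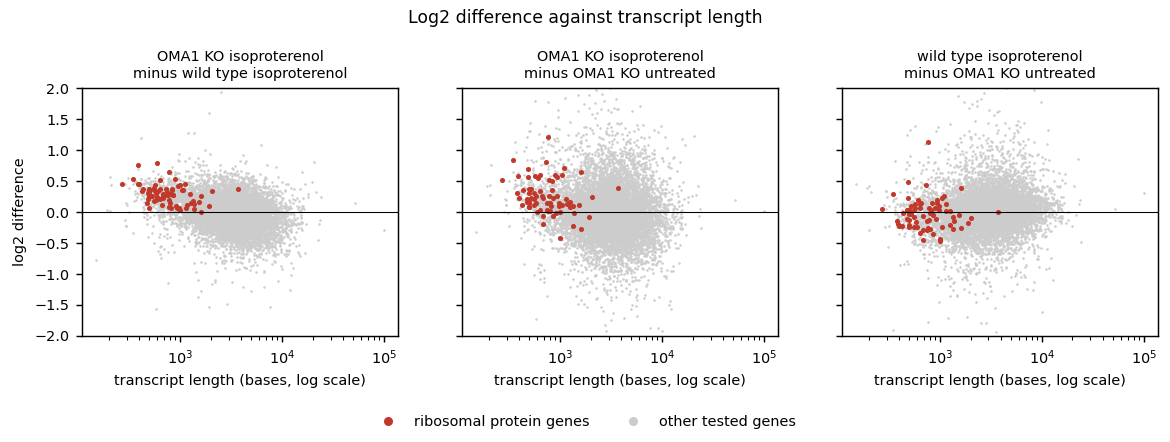
Log2 difference (vertical axis) against transcript length in bases (horizontal axis, log scale) in the 3 comparisons, for ribosomal protein genes (red) and all other tested genes (grey). In the left panel short transcripts of both kinds lie mostly above 0; the axis ends at 2 in either direction and leaves out 1 ribosomal protein gene in each of the other panels and 5, 34 and 38 other genes from left to right.

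Beyond the family, genes of protein synthesis moved in both directions. Of 22 tested genes for elongation factors and other TOP mRNAs, 5 were higher and 0 lower in treated OMA1 KO than in treated wild-type hearts, where 12% of all genes were higher and 15.9% lower. These included Rpl36al, a close paralog of Rpl36a, with a difference of 0.37 ± 0.09 (adjusted p = 0.00791, limma), and Tpt1, a growth-related protein, with 717, 715 and 703 in treated OMA1 KO hearts against 605, 651 and 596 in treated wild-type hearts and a difference of 0.21 ± 0.06 (adjusted p = 0.0305, limma). Between treated and untreated OMA1 KO hearts 6 were higher and 2 lower, the higher ones a share near the 23.9% of all genes. The fall was largest in Eef1a2, the muscle form of elongation factor, with means of 500.1 in treated and 766 in untreated OMA1 KO hearts and a difference of -0.62 ± 0.08 (adjusted p = 4.1e-05, limma). Eef1a1, its general form, was higher in treated wild-type than in untreated OMA1 KO hearts by 0.40 ± 0.10 (adjusted p = 0.00612, limma), while Eef1a2 was lower by 0.40 ± 0.08 (log2 difference -0.40, adjusted p = 0.00201, limma).

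Of 40 tested genes of ribosome assembly, 6 were higher and 0 lower in treated OMA1 KO than in treated wild-type hearts, and 11 were higher and 0 lower in treated than in untreated OMA1 KO hearts. Both shares of higher genes were near those of all genes, 12% and 23.9%. Fbl, the methyltransferase of ribosomal RNA, averaged 17.9 in treated OMA1 KO hearts and 9.42 in untreated OMA1 KO hearts, a difference of 0.86 ± 0.15 (adjusted p = 0.000348, limma). Nop56, its partner in guide particles, differed by 0.37 ± 0.12 (adjusted p = 0.0173, limma). Of 10 tested genes of RNA polymerase I, which makes ribosomal RNA, and its factors, 1 was higher and 3 lower between the OMA1 KO groups, the lower ones a share near the 27.4% of all genes. Ubtf, which opens ribosomal DNA for transcription, was higher by 0.35 ± 0.09 (adjusted p = 0.00573, limma). Rrn3, which brings the polymerase to its promoter, was lower by a log2 difference of -0.56 ± 0.08 (adjusted p = 7.91e-05, limma), and Polr1a, the largest subunit of the polymerase, by -0.45 ± 0.08 (adjusted p = 0.000547, limma).

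Of 22 tested regulators of ribosomal protein genes and mRNAs, 1 was higher and 8 lower in treated OMA1 KO than in treated wild-type hearts, where 12% of all genes were higher and 15.9% lower. The lower ones included Larp4b, with a difference of -0.53 ± 0.10 (adjusted p = 0.00295, limma), and Gabpa, a subunit of the ETS factor GABP, with -0.42 ± 0.11 (adjusted p = 0.0124, limma). Between treated and untreated OMA1 KO hearts 4 were higher and 10 lower, against 23.9% and 27.4% of all genes. Mycn, a Myc-family activator of ribosome production, averaged 14.0 in treated OMA1 KO hearts and 3.57 in untreated OMA1 KO hearts, a difference of 1.67 ± 0.22 (adjusted p = 4.58e-05, limma). Mycn reached 10 in treated OMA1 KO libraries only, and entered the test through these alone. The cap-binding factor Eif4e differed by -0.61 ± 0.07 (adjusted p = 1.99e-05, limma) and its inhibitor Eif4ebp1 by -0.50 ± 0.09 (adjusted p = 0.000365, limma). Of 7 tested genes linked to p53, 6 were higher and 1 lower in treated than in untreated OMA1 KO hearts, against the same shares. The list includes Trp53 itself. The lower gene was Ccng1, with means of 571 in treated and 900 in untreated OMA1 KO hearts. Its difference was -0.66 ± 0.09 (adjusted p = 5.43e-05, limma). Cdkn1a, the cell-cycle inhibitor induced by p53, differed by 1.35 ± 0.16 between treated and untreated OMA1 KO hearts (adjusted p = 1.71e-05, limma) and by 1.31 ± 0.16 between treated wild-type and untreated OMA1 KO hearts (adjusted p = 4.95e-05, limma).

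Several sets of cell type markers moved with the groups, and in bulk tissue fewer cells of a type and less RNA per cell cannot be told apart. Over all genes, 12% were called higher and 15.9% lower between the treated groups. The shares were 23.9% and 27.4% between the OMA1 KO groups, and 16.4% and 16.9% between treated wild-type and untreated OMA1 KO hearts. The 10 cardiomyocyte markers were all present, with summed values of 52105 to 55302 in treated OMA1 KO hearts, 47259 to 54926 in treated wild-type hearts and, in untreated hearts of OMA1 KO mice, 56852 to 61388. Of these 10, 2 were higher and 2 lower between the treated groups, and 0 higher and 3 lower between the OMA1 KO groups. Between treated wild-type and untreated OMA1 KO hearts 1 was higher and 3 lower. Of 12 endothelial markers, 10 were higher and 0 lower in treated OMA1 KO than in treated wild-type hearts, 12 were higher than in untreated OMA1 KO hearts, and 8 were higher in treated wild-type than in untreated OMA1 KO hearts. Their summed values were 2215 to 2692 in treated OMA1 KO hearts, 1735 to 1893 in treated wild-type hearts and, in untreated hearts of OMA1 KO mice, 1264 to 1394, in the same order as Rps24 and Rpl38. Of 7 tested markers of dividing cells, 0 were called between the treated groups and 7 were higher in each treated group than in untreated OMA1 KO hearts. None of the 7 reached 10 in an untreated library. They entered the test through the treated libraries alone, which favours such calls. Of 11 tested fibroblast markers, 4 were higher and 0 lower between the treated groups, 9 were higher in treated OMA1 KO than in untreated OMA1 KO hearts, and 9 were higher and 2 lower in treated wild-type than in untreated OMA1 KO hearts. Replicate 3 of the treated wild-type group stood apart, with the fibroblast marker Postn at 1043 against 198 and 269.8 in its group and the atrial marker Nppa at 842 against 51.8 and 86.0. Of 7 tested smooth muscle and pericyte markers, 0 were higher and 2 lower between the treated groups, 5 were higher and 1 lower in treated than in untreated OMA1 KO hearts, and 3 were higher in treated wild-type than in untreated OMA1 KO hearts. All 7 atrial markers were lower in each treated group than in untreated hearts, with sums of 102 to 134 in treated OMA1 KO hearts, 68.1 to 871 in treated wild-type hearts and, in untreated hearts of OMA1 KO mice, 1200 to 2681. Sln was at 0 in 5 of the 6 treated libraries, against 53.7 to 134 in untreated OMA1 KO hearts. Sln, Myl7 and Bmp10 reached 10 in untreated libraries only, and entered the test through these alone. Of 7 tested macrophage and leukocyte markers, 1 was higher and 0 lower between the treated groups, and 2 higher and 1 lower between the OMA1 KO groups. Between treated wild-type and untreated OMA1 KO hearts 0 were higher and 1 lower. Of 3 tested erythroid markers, 0 were called in any comparison, with sums of 738 to 3528 in treated OMA1 KO hearts. The part of these markers in the differences of the ribosomal protein genes was not tested.

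The genes whose profile over the 9 libraries was most like that of the tested members were sought by Pearson correlation with the members' mean standardised value. The 5 most alike outside the family and its copies were Arfrp1 (r = 0.963), Gnb2 (0.958), Irf1 (0.955), Snrpd2 (0.955) and 2310028H24Rik (0.953), each over 9 libraries, as a description. Snrpd2, a core protein of spliceosomal particles, had 36.9, 36.5 and 34.9 in treated OMA1 KO hearts, 24.6, 32.2 and 25.5 in treated wild-type hearts and 28.3, 27.8 and 26.0 in untreated OMA1 KO hearts.

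Start regions of 56 members could be matched in the RefSeq promoter table (GRCm38.p6, 250 bases before to 50 after the start). On the sense strand, CTTTC, as found in TOP tracts, occurred between 20 bases before and 50 bases after a start in 29 of the 56 members (51.8%), against 10.4% of 27025 genes. On either strand, CCGGAAG, as found in sites of ETS factors such as GABP, occurred within the 300 bases of 24 members (42.9%), against 9.93% of genes. The median longest run of C and T letters was 10.5 bases in members and 6 in all genes. The windows below run from 10 bases before to 20 after the annotated start, with CTTTC in capitals. Shown are the 5 members with the largest rise between treated and untreated OMA1 KO hearts, Rps13, Rpl28, Rpl38, Rpl10a and Rps16, and the 4 that were lower there, Rps2, Rpsa, Rplp0 and Rpl18. Rpl10a has 2 annotated starts, of which the upstream one is shown.
Rpl38 (chr11:114668570-114668599, plus strand): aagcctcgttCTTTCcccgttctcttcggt
Rpl28 (chr7:4792955-4792984, plus strand): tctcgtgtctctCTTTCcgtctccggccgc
Rps13 (chr7:116334171-116334200, minus strand): caaacgtcggtgagtggcgtcacttcctgt
Rpl10a (chr17:28328461-28328490, plus strand): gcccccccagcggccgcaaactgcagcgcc
Rps16 (chr7:28350679-28350708, plus strand): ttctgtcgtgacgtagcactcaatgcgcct
Rpl18 (chr7:45718061-45718090, plus strand): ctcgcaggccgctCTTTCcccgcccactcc
Rps2 (chr17:24720053-24720082, plus strand): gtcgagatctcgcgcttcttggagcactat
Rplp0 (chr5:115559457-115559486, plus strand): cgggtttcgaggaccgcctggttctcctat
Rpsa (chr9:120127756-120127785, plus strand): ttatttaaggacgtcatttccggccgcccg
CTTTC stood in the window of 2 of the 5 higher genes and of 1 of the 4 lower ones. A match of letters is a description of the window and not of a bound site.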

How the data were processed

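Heart RNA was measured by RNA-seq from TruSeq libraries, per the labels' protocols. The deposited values are a normalized signal: expected counts scaled to library size, made by the authors with cutadapt, RSEM 1.17 and limma on GRCm38, per the submitters' processing notes. No source used here gives the aligner or the rule by which genes entered the table (not stated). Divided by 1 step per library, 100% of values were whole reads to within 0.02.

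Values were analysed as log2(value + 1) in limma 3.58.1 (R 4.3.3) with a mean-variance trend and 1 mean per group over all 9 libraries, two-sided, for the 8543 genes with at least 10 in at least 3 libraries. Since the unit is not a raw count, edgeR 4.0.16 (quasi-likelihood) and DESeq2 1.42.0 on the recovered reads were alternatives; their calls are given with the counts. Lengths, positions and coding sequences came from GENCODE M21 (shortest principal coding transcript), copies from BLAST 2.17.0 and start regions from RefSeq. The correction for length and GC content used splines of 5 degrees of freedom on 8494 genes. Named were the paralogs, the P stalk, Rpsa, Rps6, Rpl5, Rpl11, up to 5 called rises and 5 called falls per comparison and the highest and lowest members; of each list, up to 4 genes with the smallest p. The examples of call patterns were chosen after their values were seen. Values of a few single genes are not reported here, though the counts include them. The members and gene lists were chosen with earlier results of these data known. The labels give no animal numbers, so the p-values reflect only how far these libraries spread, which may be technical. The fits were tested on simulated data. Further alternatives were the pseudocount, the filter, 3 scalings, fits on 2 groups only, a block for the replicate number, each library left out, the listed copies added in and members with listed copies left out; the last 2 were chosen after seeing the data.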

Additional observations from a re-analysis of the deposited data

How the results depend on the processing

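In the 2 comparisons with treated OMA1 KO hearts, more members were called higher than lower under every alternative run; in the third, more were lower except with the length and GC correction, and scaling without the mitochondrial genome gave 10 each way. Between treated OMA1 KO and treated wild-type hearts, the correction for length and GC content gave 13 members higher (13 with the replicate block) and a median of 0.087 (0.087 with the block), and members with no listed copy numbered 23 higher of 39. The median was 0.37 with cyclic loess and 0.34 without the mitochondrial genome. That last scaling gave 1390 genes higher and 1065 lower, against 1023 and 1356. Between treated and untreated OMA1 KO hearts the correction gave 22 higher (22 with the block) and a median of 0.092 (0.092), and members with no listed copy numbered 17 higher with a median of 0.15. With copies added the median was 0.16. With loess 1 was lower and the median 0.31, and without the mitochondrial genome 1 was lower and the median 0.33. Between treated wild-type and untreated OMA1 KO hearts 10 were lower with loess, 10 without the mitochondrial genome (median 0.033, of opposite sign) and 9 with the correction (7 with the block), which gave 12 higher.

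With 1 library left out, members called higher ranged from 37 to 47, from 33 to 40 and from 3 to 8 in the 3 comparisons, and those called lower were 0, from 2 to 4 and from 11 to 20. The replicate block gave 45 higher and 0 lower, 37 and 3, and 7 and 17. Same-numbered libraries correlated at -0.14 to 0.18 over genes, so the numbers do not pair the samples. For named members, 60 values lost and 46 gained a call out of 1740, and 10 called values changed sign; values that were not called are not counted here. With length and GC correction, with or without the block, Rpl18 went to -0.071, Rpl8 to -0.019 and Rps19 to -0.00037 between treated genotypes. With copies added Rpl21 went to -0.030 there, Rpl13 to -0.046 and Rpl10a to -0.0083 between OMA1 KO groups, and Rpl28 to -0.052 between treated wild-type and untreated OMA1 KO hearts. The causes were not tested. Rows of low value rest on few reads, since 1 read is worth 0.0811 to 0.138 on the normalized scale.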
